A study of Mus musculus with 4 samples.

Results

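The 32 genes described here encode enzymes of the tricarboxylic acid (TCA) cycle, the pentose phosphate pathway and the branches that join them, together with Acod1, the enzyme that makes itaconate. They were taken as a list of gene symbols, and array probes were assigned to them through the transcript each probe names. The array carried 49 probes for the 32 genes, out of 56605 probes and 23451 named genes in all, and 15 of the 32 genes had several probes. RNA came from bone marrow-derived dendritic cells, which were grown from femur marrow of male wild-type C57BL/6J mice and collected on day 6. The culture medium was MEM supplemented with GM-CSF (10 ng/ml) and 10% FBS. The groups were LPS with LA (100 ng/ml lipopolysaccharide and 20 mM L-(+)-LA together, 4 h), LPS alone (100 ng/ml, 4 h), LA alone (20 mM, 4 h) and medium without stimulation, for which no time was given. Lipopolysaccharide is a bacterial cell wall component that activates dendritic cells through Toll-like receptor 4, and the study's title speaks of lactate. Each group was 1 single-colour Agilent array, so no difference below could be tested between conditions. The age and number of the mice, any pooling of animals and the pH of the cultures were not given in the sources used here.

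In the TCA cycle, acetyl-CoA and oxaloacetate are joined to citrate, which is converted step by step back to oxaloacetate while electrons are passed to the respiratory chain. The pentose phosphate pathway oxidises glucose 6-phosphate to yield NADPH and ribose 5-phosphate, and its non-oxidative enzymes return surplus sugars to glycolysis. In activated macrophages and dendritic cells, cis-aconitate is drawn from the cycle by the Acod1 product to form itaconate, a metabolite that inhibits succinate dehydrogenase.

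A level below is the log2 of a probe's processed signal relative to the 75th percentile of its array, and a difference is the gap between levels on 2 arrays. The ± after a difference is the error that the scanner software assigned to the signals, carried through to the difference. It covers the spot measurement and not variation between cultures, animals or labellings. A gene was represented by its brightest probe, so levels are compared between arrays and never between genes. Of the 32 genes, 30 were well above background on all 4 arrays. Me1 (cytosolic malic enzyme) and Pcx (pyruvate carboxylase) were well above background on 0 arrays and have no fold. The share of spots well above background was 63.6% with LPS and LA, 56.5% with LPS, 64.1% with LA and 61.5% in medium. Probes printed 10 times on an array differed between their spots by a median SD of 0.051 to 0.054 log2 units.

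The label of the cells was set against marker genes. All 10 dendritic cell markers were well above background on all 4 arrays, with a summed signal of 211 with LPS and LA, 320 with LPS, 224 with LA and 285 in medium, in multiples of the 75th percentile. Every marker of the other myeloid lists was well above background on all 4 arrays too, so detection alone does not single out dendritic cells. The 10 macrophage and monocyte markers summed to 119 with LPS and LA, 186 with LPS, 127 with LA and 148 in medium. The 10 neutrophil and precursor markers summed to 905 with LPS and LA, 764 with LPS, 876 with LA and 673 in medium. The 8 mast cell, basophil and eosinophil markers summed to 112 with LPS and LA, 86.1 with LPS, 105 with LA and 55.7 in medium. Ms4a1 and Ncr1 of the lymphocyte markers and Cdh5 of the stromal markers were well above background on 0 arrays. On arrays of whole cultures, fewer cells of a type and less RNA per cell cannot be told apart.

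Acod1 (aconitate decarboxylase 1), which forms itaconate from cis-aconitate, differed more between arrays than any other of the 30 measured genes. Its level was 1.54 with LPS and LA, 6.68 with LPS, 1.17 with LA and 2.84 in medium. The array with LPS alone stood above the others, and both arrays with LA stood below medium. LPS against medium gave a difference of 3.83 ± 0.20, or 14.2-fold higher. LA against medium gave -1.68 ± 0.20, or 3.20-fold lower. With LPS and LA together the level lay 35.3-fold below that with LPS alone (-5.14 ± 0.20) and 1.29-fold above that with LA alone (0.37 ± 0.20). The LA difference was thus more negative in the presence of LPS than in its absence by 3.46 log2 units (-3.46 ± 0.29). A single probe carried Acod1. The summed macrophage and monocyte markers and the summed dendritic cell markers were also highest with LPS and lower on both arrays with LA than in medium. Taken singly for LA against medium, 8 of 10 macrophage and monocyte markers were below 0 and 2 above, where 6943 of all 14555 genes were below 0. Of these 10 markers, 2 were at least 2-fold lower and 1 at least 2-fold higher, against 3.33% and 3.12% of all genes. The 10 dendritic cell markers split into 5 below and 5 above. The part of these markers in the Acod1 difference was not tested.

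Promoters are shown for Acod1, Idh1 and Dld, the genes with the largest differences among those that have a promoter in the table, to give the sequence next to the start sites of the transcripts that differed most. Sequences are from RefSeq, on GRCm38.p6, and each runs from 250 bases before to 50 after the gene's start, 5′ to 3′ on the gene's strand. Acod1 lies at chr14:103046762-103047061 on the plus strand. Idh1 has 2 listed starts on the minus strand, the first at chr1:65186430-65186729 and the second at chr1:65179093-65179392. Dld lies at chr12:31351422-31351721 on the minus strand. Capitals mark matches on either strand to the motifs searched.
Acod1: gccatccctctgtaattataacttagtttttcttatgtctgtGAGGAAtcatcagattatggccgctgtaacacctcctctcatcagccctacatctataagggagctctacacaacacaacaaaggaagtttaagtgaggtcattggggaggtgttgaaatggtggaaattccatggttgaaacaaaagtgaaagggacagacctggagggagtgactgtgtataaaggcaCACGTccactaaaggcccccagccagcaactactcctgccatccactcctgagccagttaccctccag
Idh1 first start: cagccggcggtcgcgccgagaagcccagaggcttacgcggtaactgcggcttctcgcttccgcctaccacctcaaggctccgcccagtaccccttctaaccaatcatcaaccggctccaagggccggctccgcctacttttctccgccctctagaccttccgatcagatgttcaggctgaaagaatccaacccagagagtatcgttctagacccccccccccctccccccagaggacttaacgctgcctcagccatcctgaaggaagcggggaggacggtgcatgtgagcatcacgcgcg
Idh1 second start: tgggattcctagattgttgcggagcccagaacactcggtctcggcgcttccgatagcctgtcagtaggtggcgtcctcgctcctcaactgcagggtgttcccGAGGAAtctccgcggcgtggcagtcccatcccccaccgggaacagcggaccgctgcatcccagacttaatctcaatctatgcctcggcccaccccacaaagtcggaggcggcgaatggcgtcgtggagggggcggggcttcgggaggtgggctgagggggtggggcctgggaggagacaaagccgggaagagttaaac
Dld: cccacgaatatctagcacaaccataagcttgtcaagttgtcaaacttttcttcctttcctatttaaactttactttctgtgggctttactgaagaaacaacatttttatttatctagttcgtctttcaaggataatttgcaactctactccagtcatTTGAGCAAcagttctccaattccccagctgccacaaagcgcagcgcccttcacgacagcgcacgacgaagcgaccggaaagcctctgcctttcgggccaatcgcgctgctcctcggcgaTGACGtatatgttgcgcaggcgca
The motifs searched were GAGGAA (the core of PU.1 and other ETS factor sites), ACGTG (hypoxia response element core), TGACG (part of the CRE site), TTGCNNAA (C/EBP), GAAANNGAA (interferon-stimulated response element), TGANTCA (AP-1), TGACNNNGC (antioxidant response element core) and the kappaB motif. In the Acod1 promoter, GAGGAA stood at positions -208 to -203 and ACGTG, on the opposite strand and so printed as CACGT, at -18 to -14. The second Idh1 promoter held GAGGAA at -148 to -143, and the first held none of the motifs. The Dld promoter held TTGCNNAA on the opposite strand at -93 to -86 and TGACG at 27 to 31. GAGGAA occurs in 28.3% of all 32851 listed promoters of this length, ACGTG in 19.6%, TGACG in 20.8% and TTGCNNAA in 10.8%. GAAANNGAA, TGANTCA, TGACNNNGC and the kappaB motif, which 8.56%, 7.81%, 12.4% and 8.46% of all promoters hold in that order, were not found in these windows. The same motifs were searched in the promoters of Rpia, Aco1 and Fh1, the other genes at least 2-fold apart with LPS or with LPS and LA against LPS. Of these, Rpia held TTGCNNAA at -45 to -38, a palindromic match, Fh1 held TGACG at 7 to 11, and Aco1 held none. A match is a stretch of letters and not a measured binding site.

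**Figure D1:**
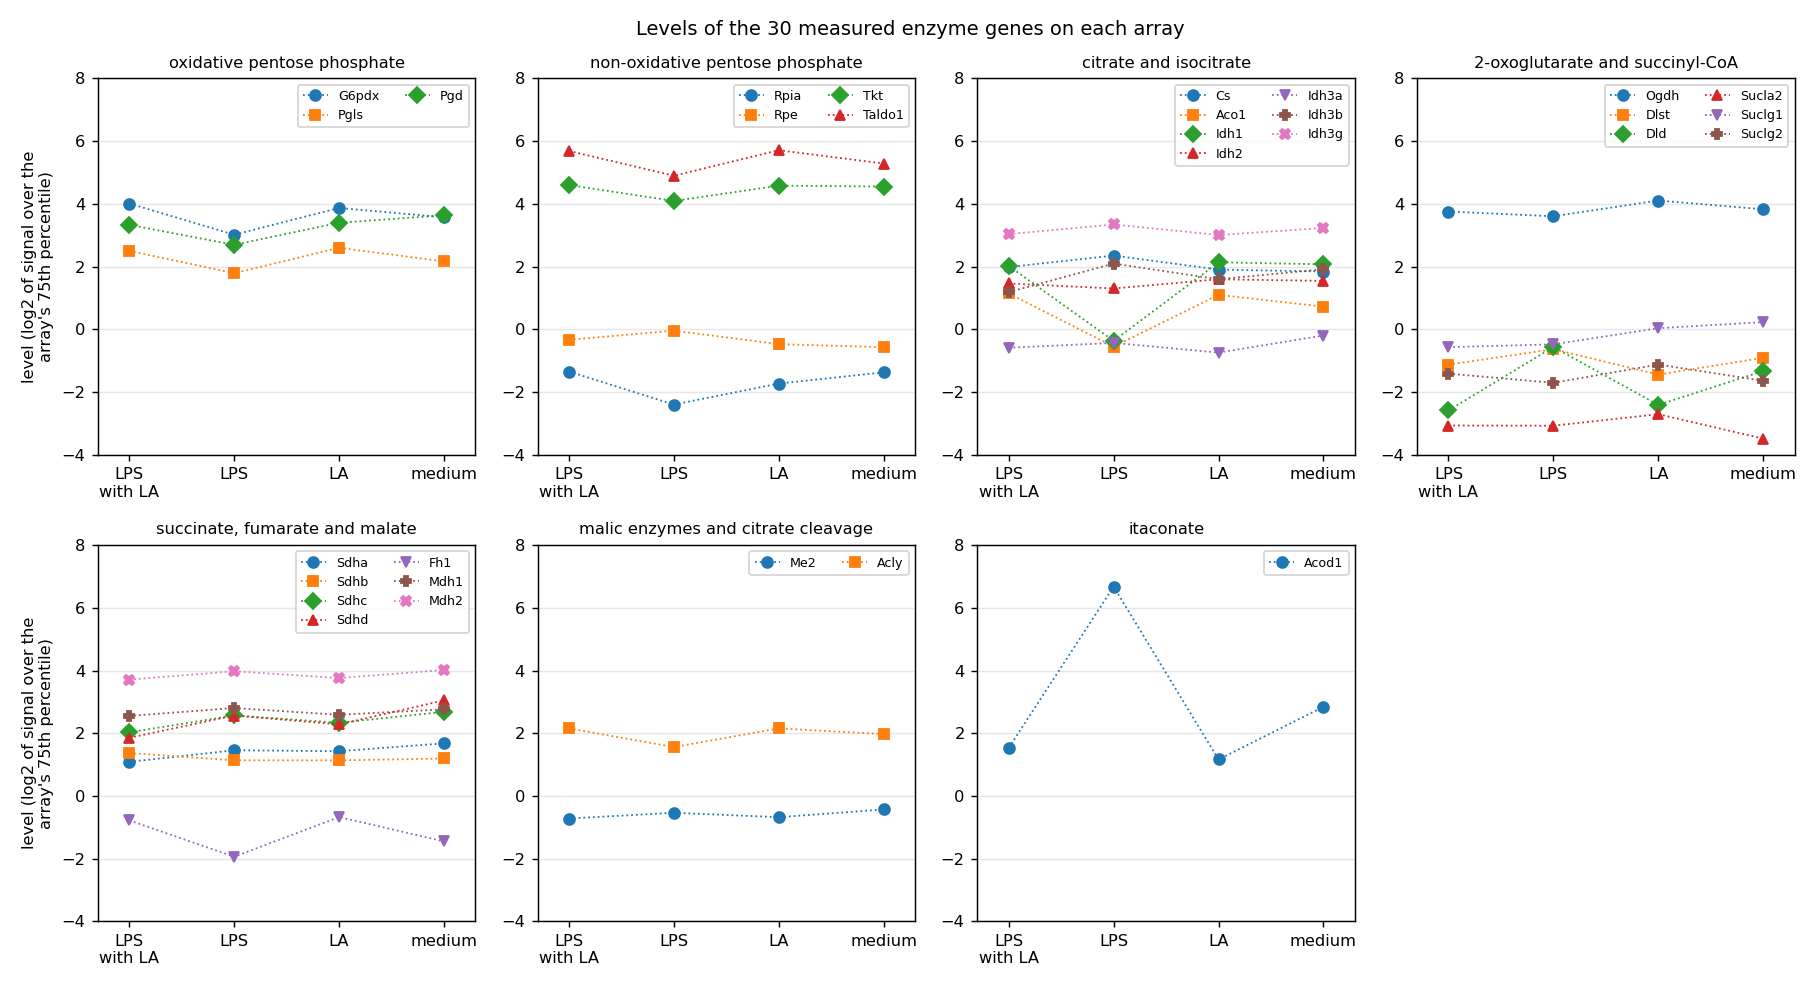
Level of each of the 30 measured genes (log2 of the processed signal relative to the array's 75th percentile) on the arrays with LPS and LA, LPS, LA and medium, 1 point per array and gene. Acod1 stands apart with LPS (6.68 against 2.84 in medium), while Idh1 and Aco1 are lowest with LPS (-0.37 and -0.55).

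The 3 enzymes of the oxidative pentose phosphate branch were all lower with LPS than in medium and all higher with LPS and LA than with LPS alone, none of them by 2-fold in the scaling used here. All 3 passed 2-fold between LPS with LA and LPS after quantile normalization and in the authors' deposited values, at 1.06 to 1.45 for G6pdx and Pgd. Pgls was at 1.0015 and 1.13 in that order. Of all genes, 1715 of 13631 passed 2-fold upward after quantile normalization and 3043 of 13390 in the authors' values. In the authors' values the median of all genes was 0.43. Relative to it G6pdx was at 0.98, Pgls at 0.70 and Pgd at 0.625, all under 2-fold. G6pdx (glucose-6-phosphate dehydrogenase), which commits glucose 6-phosphate to the pathway and makes NADPH, had a level of 4.01 with LPS and LA, 3.01 with LPS, 3.87 with LA and 3.57 in medium. Its difference between LPS with LA and LPS was 1.0 ± 0.20 (1.99-fold), just under the 2-fold line, and that between LPS and medium was -0.56 ± 0.20. Pgls (6-phosphogluconolactonase), the hydrolase of the branch, was at 2.50 with LPS and LA, 1.79 with LPS, 2.60 with LA and 2.17 in medium. Pgd (6-phosphogluconate dehydrogenase), the other NADPH-forming step, was at 3.33 with LPS and LA, 2.69 with LPS, 3.40 with LA and 3.64 in medium. Pgd was 1.92-fold lower with LPS than in medium (-0.94 ± 0.20) and 1.56-fold higher with LPS and LA than with LPS (0.64 ± 0.20). For all 3 genes the array with LPS alone was the lowest of the 4.

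Among the 4 non-oxidative enzymes, 3 were lower with LPS than in medium and higher with LPS and LA than with LPS. Rpia (ribose-5-phosphate isomerase), which makes ribose 5-phosphate, had a level of -1.35 with LPS and LA, -2.40 with LPS, -1.73 with LA and -1.37 in medium. It was 2.04-fold lower with LPS than in medium (-1.03 ± 0.26) and 2.07-fold higher with LPS and LA than with LPS (1.05 ± 0.26). Both values lay within their error of the 2-fold line. Tkt (transketolase), which moves carbon units between sugars, was at 4.60 with LPS and LA, 4.09 with LPS, 4.58 with LA and 4.55 in medium. Taldo1 (transaldolase) was at 5.69 with LPS and LA, 4.90 with LPS, 5.71 with LA and 5.29 in medium, 1.73-fold higher with LPS and LA than with LPS. Tkt and Taldo1 were thus lowest with LPS, at differences of -0.46 ± 0.20 and -0.39 ± 0.20 from medium. The second Taldo1 probe had smaller gaps, at -0.19 for LPS against medium and 0.16 for LPS with LA against LPS. Rpe (ribulose-phosphate 3-epimerase) ran the other way, at -0.34 with LPS and LA, -0.04 with LPS, -0.48 with LA and -0.57 in medium, although its gap between LPS with LA and LPS (-0.29 ± 0.21) reached 0.13 in 1 of 8 alternative processings. The other 2 Rpe probes gave differences of 0.64 and 1.29 between LPS and medium where the brightest gave 0.53, so its size depends on the probe. Summed neutrophil and precursor markers were also higher with LPS and LA than with LPS. In that comparison 5 of those 10 markers were at least 2-fold higher, against 11.5% of all genes. For LPS against medium their sum was higher with LPS (764 against 673), with 5 of the 10 above 0 and 5 below, whereas the pentose phosphate genes other than Rpe were lower. The part of these markers in the pentose phosphate values was not tested.

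Of the citrate and isocitrate enzymes, the cytosolic forms Idh1 and Aco1 were much lower with LPS alone than on any other array. Idh1 (cytosolic NADP-dependent isocitrate dehydrogenase) had a level of 2.02 with LPS and LA, -0.37 with LPS, 2.14 with LA and 2.07 in medium. It was 5.43-fold lower with LPS than in medium (-2.44 ± 0.21) and 5.23-fold higher with LPS and LA than with LPS (2.39 ± 0.21), while LA against medium gave 0.06 ± 0.20. The second Idh1 probe gave -2.01 between LPS and medium and 2.23 between LPS with LA and LPS. Aco1 (cytosolic aconitase, which also binds iron-responsive RNA elements when it lacks its iron-sulphur cluster) was at 1.14 with LPS and LA, -0.55 with LPS, 1.10 with LA and 0.72 in medium. It was 2.42-fold lower with LPS than in medium (-1.27 ± 0.21) and 3.24-fold higher with LPS and LA than with LPS (1.69 ± 0.21). A second, dimmer Aco1 probe was not well above background with LPS.

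The mitochondrial counterpart of Idh1 and the other enzymes of the group showed smaller gaps. Idh2 (mitochondrial NADP-dependent isocitrate dehydrogenase) was at 1.46 with LPS and LA, 1.30 with LPS, 1.60 with LA and 1.54 in medium, and no pair of arrays differed by 1.5-fold. Cs (citrate synthase), which forms citrate, was at 1.99 with LPS and LA, 2.35 with LPS, 1.90 with LA and 1.84 in medium. Cs was highest with LPS, by 0.51 ± 0.20 over medium on its brightest probe and by 0.92 on the other. Its gap of -0.36 ± 0.20 between LPS with LA and LPS reached 0.06 in 1 alternative. On the other Cs probe that gap was -1.002, just past the 2-fold line, so its size depends on the probe. The LA difference with LPS minus that without LPS was -0.43 on the brightest Cs probe and -1.12 on the other. The NAD-dependent isocitrate dehydrogenase has the catalytic subunit Idh3a and the subunits Idh3b and Idh3g. Idh3a was at -0.59 with LPS and LA, -0.43 with LPS, -0.74 with LA and -0.20 in medium. Idh3b was at 1.19 with LPS and LA, 2.09 with LPS, 1.60 with LA and 1.92 in medium. Idh3g was at 3.04 with LPS and LA, 3.34 with LPS, 3.01 with LA and 3.23 in medium. Of the 3 subunits Idh3b had the widest gap, 1.88-fold lower with LPS and LA than with LPS (-0.91 ± 0.20).

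The enzymes from 2-oxoglutarate to succinate differed by under 2-fold in every comparison except for Dld. Dld (dihydrolipoamide dehydrogenase) is the subunit that the 2-oxoglutarate, pyruvate and branched-chain dehydrogenase complexes share. Its level was -2.59 with LPS and LA, -0.56 with LPS, -2.41 with LA and -1.33 in medium, so that both arrays with LA were lowest and LPS alone was highest. Dld was 4.07-fold lower with LPS and LA than with LPS (-2.02 ± 0.24) and 2.11-fold lower with LA than in medium (-1.08 ± 0.24), and 1.70-fold higher with LPS than in medium (0.77 ± 0.22). With normexp background correction the first 2 of these gaps were smaller, at -0.91 for LPS with LA against LPS and -0.35 for LA against medium, and the second was -0.93 in the authors' deposited values. As for Acod1, LPS was highest, medium next and the arrays with LA below both, although LPS with LA was the lowest for Dld and LA for Acod1. The partner subunits of the 2-oxoglutarate dehydrogenase complex had smaller gaps. Ogdh, the decarboxylase, was at 3.76 with LPS and LA, 3.60 with LPS, 4.11 with LA and 3.83 in medium. Dlst, the succinyltransferase, was at -1.13 with LPS and LA, -0.63 with LPS, -1.44 with LA and -0.91 in medium. Dlst had the array order of Acod1 within a narrower range.

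Succinyl-CoA ligase consists of the shared subunit Suclg1 and either Sucla2 (ATP-forming) or Suclg2 (GTP-forming). Suclg1 was at -0.57 with LPS and LA, -0.48 with LPS, 0.03 with LA and 0.23 in medium. On the brightest probes, Suclg1 alone of the 30 genes was at least 1.5-fold apart between LPS with LA and LA (-0.60 ± 0.21). In that comparison the second Mdh1 probe gave -0.62, and Suclg2 reached -0.67 in the alternatives. Suclg1 lay 1.63-fold lower with LPS than in medium (-0.71 ± 0.21). Suclg2 was at -1.41 with LPS and LA, -1.71 with LPS, -1.12 with LA and -1.64 in medium. Sucla2, near the detection limit, was at -3.07 with LPS and LA, -3.08 with LPS, -2.71 with LA and -3.49 in medium, with errors of 0.31 to 0.43 on its differences. The Suclg1 gap was between arrays with and without LPS, whereas Sucla2 and Suclg2 were highest with LA.

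The 4 subunits of succinate dehydrogenase, the enzyme that itaconate inhibits, were all under 2-fold apart in the 4 comparisons between arrays. Sdha (flavoprotein subunit) was at 1.09 with LPS and LA, 1.46 with LPS, 1.43 with LA and 1.68 in medium. Sdhc, a membrane anchor, was at 2.03 with LPS and LA, 2.57 with LPS, 2.34 with LA and 2.68 in medium. Sdhd, the other anchor, was at 1.86 with LPS and LA, 2.57 with LPS, 2.28 with LA and 3.05 in medium. Sdha, Sdhc and Sdhd were highest in medium and lowest with LPS and LA, except that for Sdha the gap between LPS with LA and LPS reached 0.05 in 1 alternative. The second Sdha probe was lowest with LA (-0.15) and not with LPS and LA (0.14). Sdhd had the widest range, from 3.05 in medium to 1.86 with LPS and LA, a gap of more than 2-fold. That pair of arrays is not among the 4 comparisons. Sdhd was 1.64-fold lower with LPS and LA than with LPS (-0.71 ± 0.20) and 1.70-fold lower with LA than in medium (-0.77 ± 0.20). Sdhb (iron-sulphur subunit) differed from that order, at 1.37 with LPS and LA, 1.14 with LPS, 1.14 with LA and 1.20 in medium. The second Sdhb probe gave -0.54 for LPS against medium where the brightest gave -0.06.

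Fh1 (fumarate hydratase), which hydrates fumarate to malate, had a level of -0.78 with LPS and LA, -1.94 with LPS, -0.67 with LA and -1.45 in medium. Both arrays with LA were above both arrays without it. Fh1 was 2.23-fold higher with LPS and LA than with LPS (1.16 ± 0.24) and 1.71-fold higher with LA than in medium (0.78 ± 0.21). The malate dehydrogenases, which oxidise malate to oxaloacetate in the cytosol (Mdh1) and the mitochondrion (Mdh2), had the narrowest ranges among the 7 genes from succinate to oxaloacetate apart from Sdhb. Mdh1 was at 2.55 with LPS and LA, 2.81 with LPS, 2.59 with LA and 2.76 in medium. Mdh2 was at 3.71 with LPS and LA, 3.98 with LPS, 3.76 with LA and 4.02 in medium. For both, the arrays with LA were slightly below those without, by 0.17 to 0.27 log2 units, about the size of the signal error. Between LPS with LA and LPS their sign turned in 3 of 8 alternatives (up to 0.17 for Mdh1 and 0.27 for Mdh2). The second Mdh1 probe was at -0.84 with LPS and LA, -0.40 with LPS, -0.22 with LA and -0.17 in medium. On that probe the array with LA lay above that with LPS.

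Acly (ATP citrate lyase), which splits exported citrate into acetyl-CoA for lipid synthesis and histone acetylation, was at 2.15 with LPS and LA, 1.56 with LPS, 2.16 with LA and 1.97 in medium. Like the oxidative pentose phosphate enzymes it was lowest with LPS alone, and it lay 1.51-fold higher with LPS and LA than with LPS (0.59 ± 0.20). Me2 (mitochondrial malic enzyme), which turns malate into pyruvate, was at -0.72 with LPS and LA, -0.54 with LPS, -0.68 with LA and -0.43 in medium. No pair of these arrays differed by 1.5-fold in Me2.

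**Figure D2:**
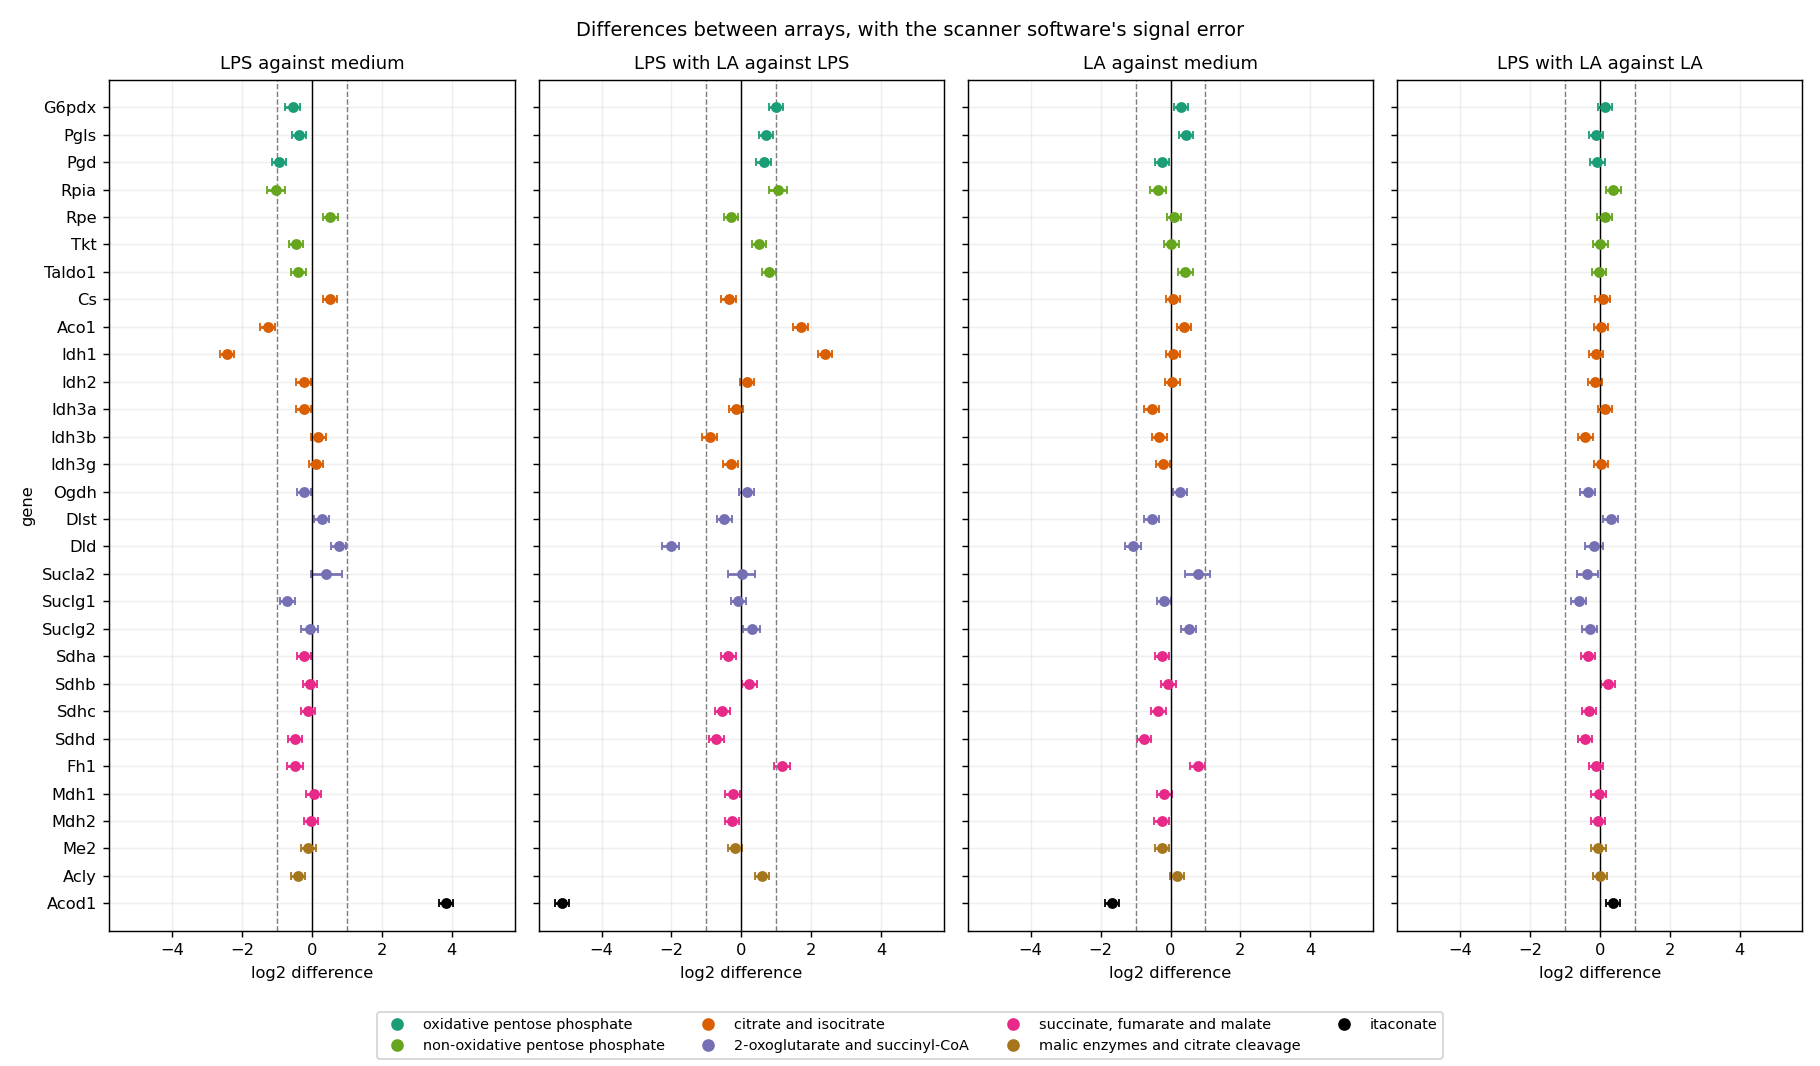
Log2 difference of each of the 30 measured genes in 4 comparisons, with bars for the scanner software's signal error and lines at 2-fold. Idh1 shows -2.44 for LPS against medium and 2.39 for LPS with LA against LPS, and no gene passes 2-fold between LPS with LA and LA.

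The genes were then counted in each comparison and set beside all measured genes of the array. The comparisons share arrays, so their counts are not independent of each other. For LPS against medium, 1 of 30 genes was at least 2-fold higher (Acod1), against 8.14% of 13592 genes, and 3 were at least 2-fold lower (Rpia, Aco1 and Idh1), against 7.5%. At 1.5-fold the counts were 2 higher and 5 lower, against 15.8% and 18.1% of all genes. The median difference of the 30 genes was -0.22 and that of all genes 0.00, with 21 of the 30 below 0. With normexp background correction 1 gene, Idh1, was at least 2-fold lower, against 317 of 13590 genes. Among all genes 2-fold apart, 52.1% were higher with LPS, a share that ranged from 30.2% to 68.3% under other scalings and background corrections.

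For LA against medium, 0 of 30 genes were at least 2-fold higher, against 3.12% of 14555 genes, and 2 were at least 2-fold lower (Acod1 and Dld), against 3.33%. With normexp and in the authors' deposited values the lower count was 1 (Acod1), against 165 of 14553 and 298 of 13390 genes. At 1.5-fold, 2 were higher (Fh1 and Sucla2) and 3 lower (Acod1, Dld and Sdhd), against 11.2% and 10.8%. The median was -0.12 for the 30 genes and 0.02 for all genes. The higher share of all genes 2-fold apart was 48.4%, and 30.4% to 65.7% in the alternatives.

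For LPS with LA against LPS, 4 of 30 genes were at least 2-fold higher (Rpia, Aco1, Idh1 and Fh1), against 11.5% of 13631 genes, and 2 were at least 2-fold lower (Dld and Acod1), against 12.5%. At 1.5-fold, 9 were higher and 4 lower, against 22.2% and 21.8%. The median of the 30 genes was -0.04, that of all genes 0.00, and 15 of the 30 lay on either side of 0. The number of genes at least 2-fold higher depended on the scaling. It was 8 of 30 after quantile normalization, against 1715 of 13631 genes, and 9 of 30 in the authors' deposited values, against 3043 of 13390. It also depended on the background correction, with 2 of 30 after normexp, against 639 of 13628. There the lower count was 1 (Acod1), against 1109 of 13628. Among all genes 2-fold apart, 48.0% were higher, and 36.6% to 76.7% in the alternatives.

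For LPS with LA against LA, none of the 30 genes passed 2-fold, with 0 higher and 0 lower, against 0.906% and 1.5% of 14905 genes. At 1.5-fold the counts were 0 higher and 1 lower (Suclg1), against 4.07% and 5.35%. The median was -0.05 for the 30 genes and -0.02 for all genes, and the higher share of all genes 2-fold apart was 37.7%, with 25.8% to 44.7% in the alternatives. The LA difference with LPS exceeded the LA difference without LPS by at least 2-fold for 3 of 30 genes (Rpia, Aco1 and Idh1), against 8.97% of 13368 genes, and was smaller by at least 2-fold for 1 (Acod1), against 9.7%. There the higher share of all genes was 48.0%, with 36.8% to 70.4% in the alternatives. In each comparison most of the 30 genes lay under 2-fold, and the counts of genes apart were small.

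**Figure D3:**
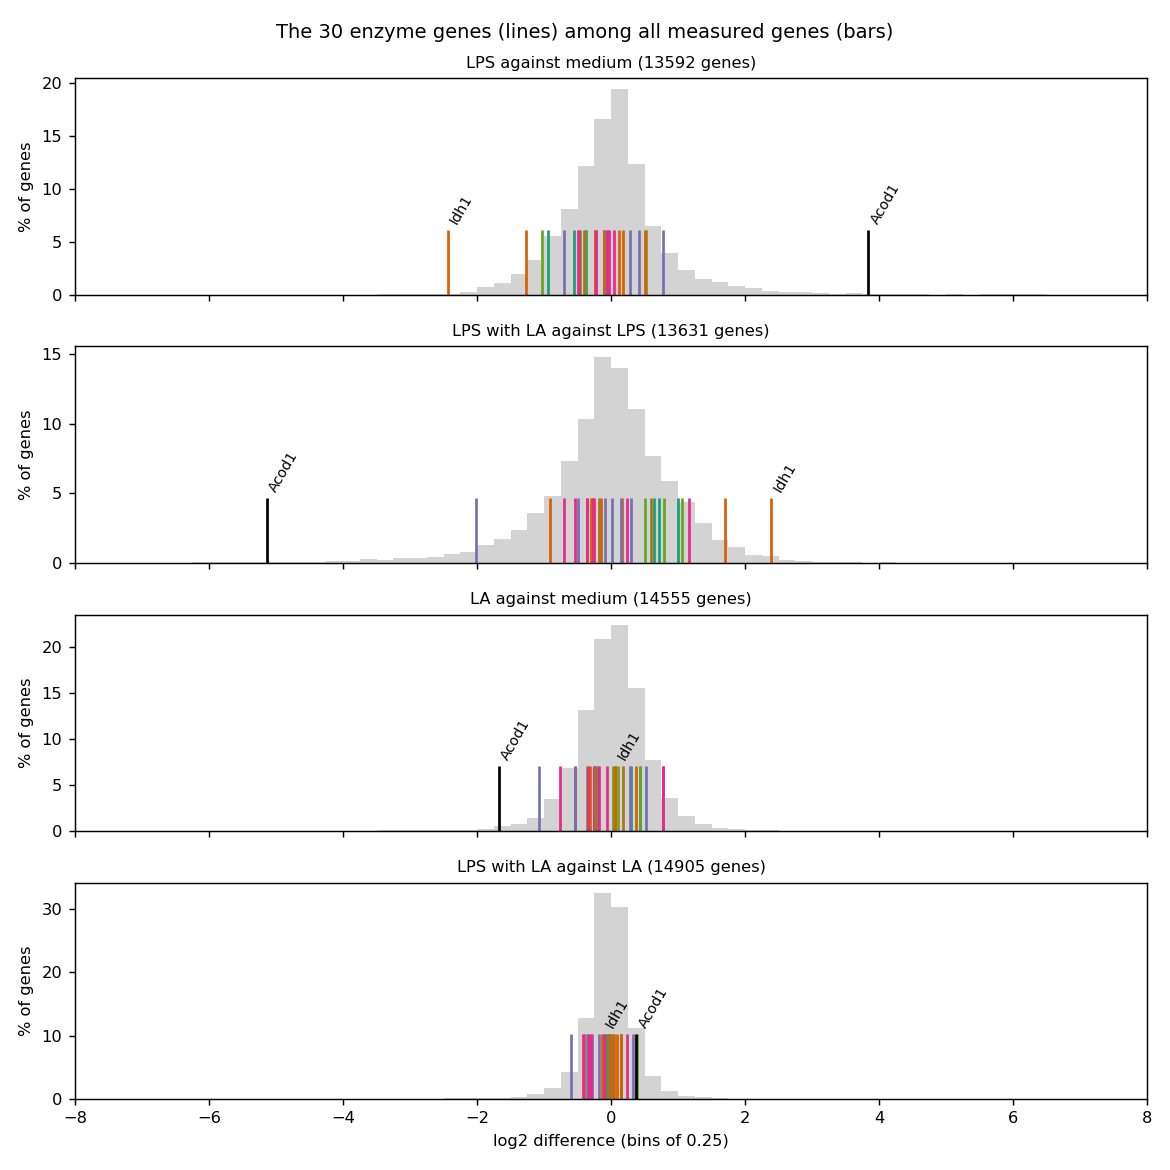
Percent of all measured genes per bin of log2 difference (grey bars, 0.25 log2 units wide) in 4 comparisons, with each of the 30 genes as a coloured line. Acod1 lies in the tail at 3.83 for LPS against medium and at -5.14 for LPS with LA against LPS, and most of the 30 lines lie within 2-fold.

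The level with LPS and LA was nearer to that with LA than to that with LPS for 26 of 30 genes, against 76.8% of all 13368 genes measured on all arrays and 83.3% of the 6671 brighter genes, those at or above the 75th percentile on average. The count was 20 to 25 of 30 in the 6 alternatives run, and its standing against all genes depended on the scaling. It was 20 of 30 against 79.7% of all genes with a 75th percentile of the brighter probes alone, those detected on each of the 4 arrays, and 23 of 30 against 82.6% in the authors' deposited values. The exceptions were Ogdh, Sucla2, Suclg1 and Sdhb. For Sdhb both gaps were nearly equal, at 0.232 from LA and 0.231 from LPS. Its second probe was nearer to LA, at -0.02 from LA and 0.78 from LPS. The median absolute gap of the 30 genes was 0.14 log2 units from LA and 0.50 from LPS. On the brightest probes and in the scaling used here, all 3 oxidative and all 4 non-oxidative pentose phosphate enzymes were nearer to LA. So were all 7 citrate and isocitrate enzymes, although Idh3a was nearly tied, at 0.1535 from LA and -0.1544 from LPS. Among other probes well above background on all 4 arrays, those of Idh2, Mdh1 and Sdha were nearer to LPS. Those of Acly, Cs, Idh1, Idh3g, Ogdh, Pgls, Rpe, Sdhb and Taldo1 were nearer to LA. In the 2-oxoglutarate and succinyl-CoA group, 3 of 6 were.

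For context, 53 further genes of the same pathways were read, of which 40 were well above background on all 4 arrays. For LPS against medium, 1 of 40 was at least 2-fold higher and 5 lower, against 8.14% and 7.5% of all genes. For LPS with LA against LPS, 5 of 40 were at least 2-fold higher and 4 lower, against 11.5% and 12.5%. The 5 lower and the 5 higher include Mmut, whose probes disagree. The widest gap was that of H6pd, the hexose-6-phosphate dehydrogenase of the endoplasmic reticulum and a counterpart of G6pdx and Pgls. H6pd was at 0.97 with LPS and LA, -2.36 with LPS, 0.46 with LA and 0.42 in medium, 6.86-fold lower with LPS than in medium (-2.78 ± 0.25) and 10.0-fold higher with LPS and LA than with LPS (3.32 ± 0.25). Like Idh1 and Aco1, it was low on the array with LPS alone. Rbks (ribokinase) showed -1.73 for LPS against medium and 1.93 for LPS with LA against LPS. Pdk2, a kinase that inactivates pyruvate dehydrogenase, showed -2.51 and 2.08 in the same comparisons.

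Among mitochondrial carriers, Slc25a22 (a glutamate carrier) was 2.87-fold higher with LPS than in medium (1.52 ± 0.21) and 2.66-fold lower with LPS and LA than with LPS (-1.41 ± 0.21), and its other 2 probes had the same signs. Of the genes that make and use aspartate, Got1 (cytosolic aspartate aminotransferase) was at 0.78 with LPS and LA, 1.86 with LPS, 0.98 with LA and 2.47 in medium. Ass1 (argininosuccinate synthase) was at -1.11 with LPS and LA, 0.48 with LPS, -1.14 with LA and 0.12 in medium. Both were at least 2-fold lower with LA than in medium (-1.48 ± 0.20 and -1.25 ± 0.21), as Acod1 and Dld were. Gpt2 (mitochondrial alanine aminotransferase) and Sdhaf4 (a succinate dehydrogenase assembly factor) were at least 2-fold higher with LA than in medium, at 1.23 and 1.17. The Sdhaf4 value lay within its error (± 0.23) of the 2-fold line, and Gpt2 was dim in medium, at a level of -3.16. Mmut (methylmalonyl-CoA mutase), placed among the genes of itaconate breakdown, gave -1.56 for LPS against medium on its brightest probe and 1.97 on its other, so no direction is given. For LA against medium, 2 of 42 genes passed 2-fold upward and 2 downward, against 3.12% and 3.33% of all genes. For LPS with LA against LA 0 of 42 passed it in either direction, against 0.906% higher and 1.5% lower of all genes.

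**Figure D4:**
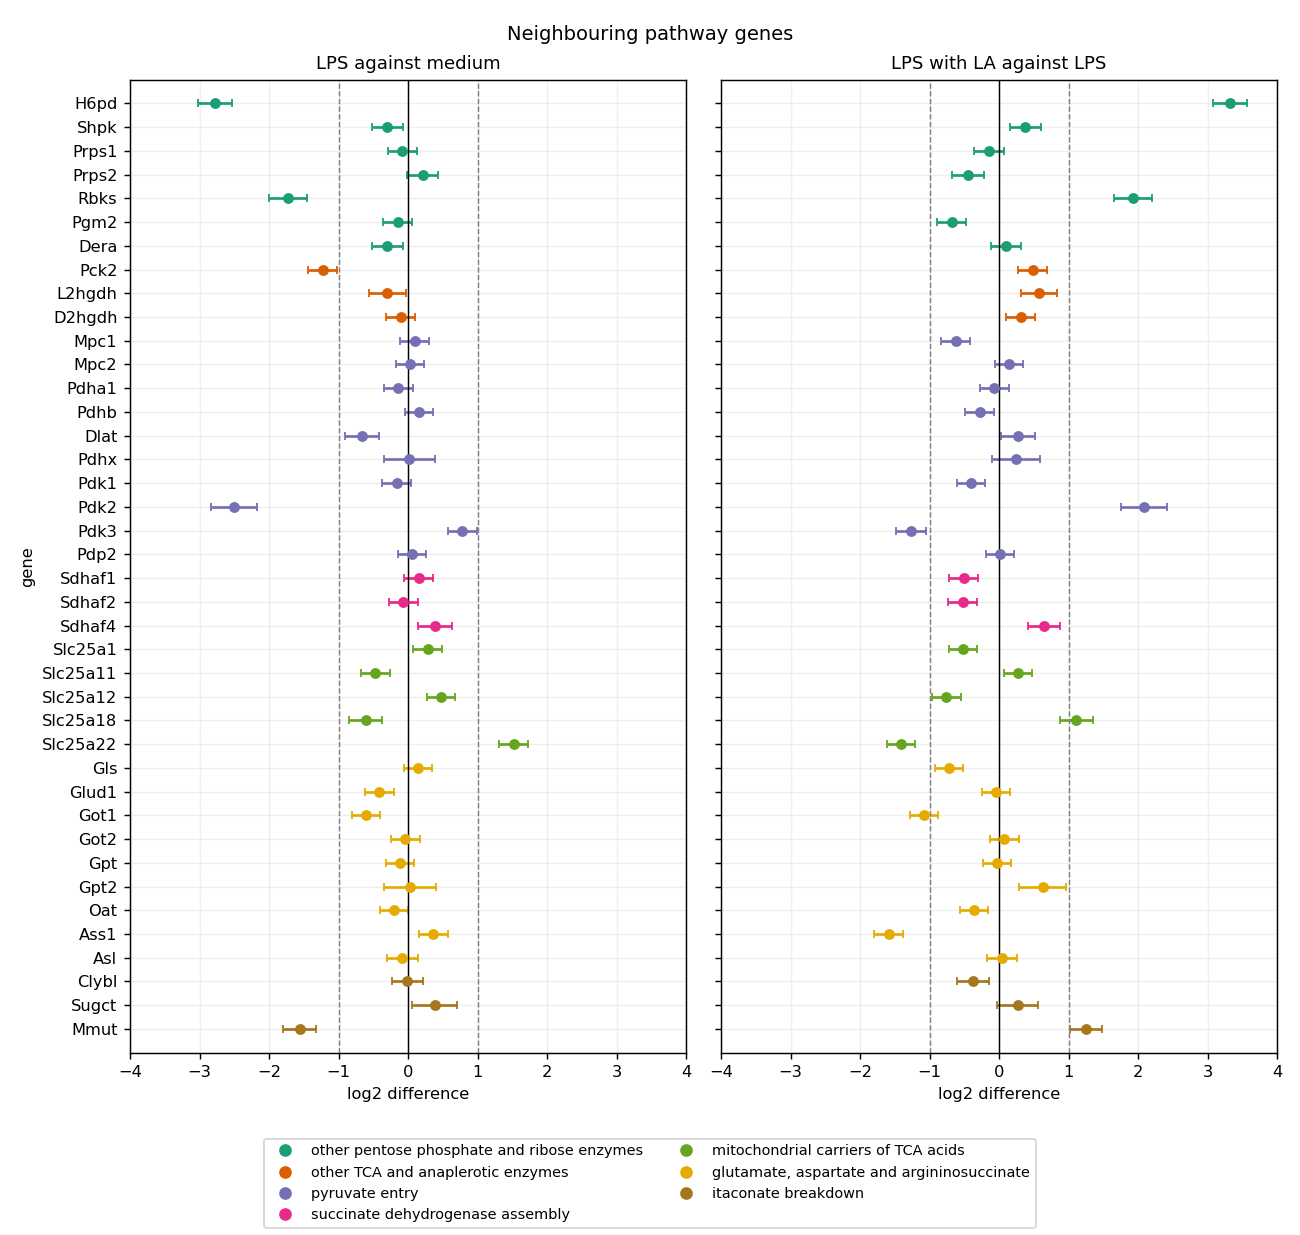
Log2 difference of the 40 further pathway genes well above background on all 4 arrays, for LPS against medium and for LPS with LA against LPS, with bars for the scanner software's signal error, colours for the gene groups and dashed lines at 2-fold. H6pd stands apart at -2.78 for LPS against medium and 3.32 for LPS with LA against LPS.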

How the data were processed

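RNA of 4 cultures was hybridised to 4 single-colour Cy3 arrays, 1 per group. Spot intensity was deposited as the software's processed signal, on a linear scale, with background removed and with no scaling from array to array. The software was Feature Extraction 12.0.3.1 per the file headers, and 11.5.1.1 per the submitters' processing notes. A second deposited table gives intensity values for 31529 spots, each the processed signal multiplied by a constant of its array (9.30 for LPS with LA, 5.82 for LPS, 8.38 for LA and 6.67 for medium). Its values are linear and not centred, with column medians of 1189, 873, 1164 and 1038 in the same order.

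Levels were computed from the deposited intensity as log2 of the signal minus the log2 of the array's 75th percentile over 59305 spots that are not controls (146, 174, 158 and 179). Spots marked as outliers were left out (146, 129, 134 and 154), 0 spots were saturated, and spots of a probe were averaged. Probes were named through their transcript in a RefSeq table of GRCm38.p6. Of 56605 probes 33767 matched 1 symbol, and 22838 matched none and are unnamed here. The array headers name mm9, so no gene coordinate is given apart from RefSeq's promoters, which 29 of the 32 genes had (none for Idh3a, Sdhc and Me2).

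A gene took its brightest probe by the mean over arrays. A difference was used where both arrays were well above background, and all 4 for the difference between LA differences. A gene counted as apart from 2-fold, with 1.5-fold as the second line. All headers give the same slide and scan time, so neither could be examined as a batch. Alternatives changed the scaling, the background correction (limma 3.58.1, normexp with an offset of 50, applied to the median spot signal), the filter, the choice of probe and the source of values. The calculation was tested on simulated data. The number of arrays limits the precision. With 1 array per group no p-value, SD or replicate check exists.

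The 32 genes, the further pathway genes, the marker lists and the motifs were chosen with earlier results of these data known. Every one of the 32 genes is named. Of the further genes, those at least 2-fold apart or at the end of their list could be named. Some pathway genes are not reported here. The marker lists for lymphocytes, erythroid cells and stromal cells had 3 of 7, 2 of 5 and 4 of 7 genes well above background on all arrays.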

Additional observations from a re-analysis of the deposited data

Results flagged for a closer look

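Rpia and Pgd had LA differences of opposite sign with and without LPS, and the difference was not tested. For Rpia, LA gave 1.05 ± 0.26 with LPS present and -0.36 ± 0.22 without LPS, a gap of 1.41 log2 units. Read the other way, LPS gave 0.38 ± 0.22 for Rpia with LA present and -1.03 ± 0.26 without LA, the same gap of 1.41. For Pgd, LA gave 0.64 ± 0.20 with LPS present and -0.24 ± 0.20 without LPS, a gap of 0.88. Each value is from 1 array against 1 array.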

How the results depend on the processing

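Of 160 results under 8 alternatives, 144 moved by less than the spread between probes of a gene or, for counts, by no more than 1.5 times. Some could not move. Changing the filter leaves each gene's difference as it was, and asking for all 4 arrays keeps the same 30 genes, which fixes 20 results. Acod1, with a single probe, is also fixed under the mean of all probes. Medians were judged by the wide spread of single genes, so a change from -0.04 to 0.24 for LPS with LA against LPS counted as unmoved. For LPS against medium, Acod1 was 3.51 after quantile normalization and 3.60 in the authors' deposited values, the genes lower numbered 1 with normexp, and the median was -0.46 in the authors' values. For LA against medium, the genes lower numbered 1 with normexp and 1 in the authors' values. The genes higher numbered 1 without the background filter (Me1, not well above background), against 1861 of 23451 genes. For LPS with LA against LPS, the genes higher numbered 8 after quantile normalization, 2 with normexp and 9 in the authors' values, the genes lower 1 with normexp, Acod1 was -4.74 and -4.72 with quantile and the authors' values, and the median was 0.38 in the authors' values. For the difference between LA differences, Acod1 was -3.12 after quantile normalization and the genes higher numbered 1 with normexp, against 419 of 13363 genes. In the authors' scaling the median of all genes lay at -0.24 for LPS against medium, 0.17 for LA against medium and 0.43 for LPS with LA against LPS. Relative to it, the medians of the 30 genes were -0.22, -0.14 and -0.05.

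All genes called 2-fold apart kept their sign in each of the 8 alternatives. Calls lost were Rpia (-0.45 to -0.97 for LPS against medium, 0.58 to 0.95 for LPS with LA against LPS), and with normexp Aco1 (-0.99 for LPS against medium), Fh1 (0.65) and Dld (-0.35 for LA against medium, -0.91 for LPS with LA against LPS). For the difference between LA differences, normexp gave 0.67 for Rpia and 0.96 for Aco1, also under 2-fold. Dld was also at -0.93 for LA against medium in the authors' values. Calls gained for LPS with LA against LPS were G6pdx, Pgls, Pgd, Taldo1, Tkt and Acly (up to 1.45, in up to 3 scalings each) and Idh3b (-1.02 with median scaling), and Pgd gained a call for LPS against medium (-1.13 to -1.18) and for the difference between LA differences (1.08 to 1.15). The 3 oxidative pentose phosphate genes lay below 0 for LPS against medium and above 0 for LPS with LA against LPS in every alternative, while the signs within the succinate, fumarate and malate group changed with the scaling. The count of 26 of 30 genes nearer to LA was 20 to 25 in the 6 alternatives run. Among all genes, those 2-fold apart for LPS against medium numbered 683 higher and 317 lower with normexp, against 1107 and 1019. No paired analysis was possible because each group is 1 array.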

Other observations

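After the values were seen, 5 measured enzymes that form NADPH were put side by side (G6pdx, Pgd, Idh1, Idh2 and H6pd). All 5 were below 0 for LPS against medium, with a median of -0.94, and all 5 were above 0 for LPS with LA against LPS, with a median of 1.0. For LPS with LA against LA the median was -0.07. Among all genes, 6763 of 13592 were below 0 for LPS against medium and 6840 of 13631 were above 0 for LPS with LA against LPS. The group was chosen for its values, so its shared signs carry no weight, and it has no test. The gap was wide for cytosolic Idh1 and for H6pd and narrow for mitochondrial Idh2 (-0.24 and 0.16 in the 2 comparisons). For LPS with LA against LPS the second Idh2 probe gave -0.19, and the sign of Idh2 turned in 1 of 8 alternatives (-0.01).

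Adhfe1, a mitochondrial hydroxyacid-oxoacid transhydrogenase, was well above background with LPS alone and was at least 2.04-fold lower with LPS and LA. Pdk3, another pyruvate dehydrogenase kinase, ran opposite to Pdk2, at -1.26 for LPS with LA against LPS where Pdk2 gave 2.08.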
